A study of Mus musculus with 2 samples.

Results

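The 8 genes described here encode homeobox transcription factors that pattern the brain, eye, jaw and limbs of the embryo: Lhx5, Lmx1a, Otx2, En1, Six6, Meis2, Barx1 and Barx2. They were chosen by their entry in a deposited list of macroH2A1 peaks, so each has at least 1 peak by choice, and their peak values are a description with no test. Together they hold 12 of the 2560 listed peaks, and they are 8 of the 2132 genes to which a peak was assigned. The peaks come from chromatin immunoprecipitation and sequencing (ChIP-seq) of untreated E14 cells, a mouse embryonic stem cell line in long use, grown with leukemia inhibitory factor. One library was made with an antibody raised against part of mouse macroH2A1, and 1 library with non-specific IgG. The IgG library is not described by values of its own here, neither antibody has a replicate, and the sequencing depth is not known for either library. Every value therefore describes a single peak list, with no error that covers a second culture.

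MacroH2A1 is a histone variant that takes the place of H2A in some nucleosomes and carries a large extra globular domain. It is best known from the inactive X chromosome and from silent developmental genes. Homeobox genes encode proteins that bind DNA through a homeodomain, and many of them are switched on in narrow territories of the embryo, often under the control of regulatory elements far from the promoter. In embryonic stem cells many such genes are held at low expression and marked by Polycomb proteins. Otx2 differs in that it is also needed when these cells leave the naive state.

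None of the 12 peaks covered the start of its gene, which is near the share in the whole list, where 30 of 2560 peaks did. The distance between a gene start and the closest edge of its peak had a median of 35.6 kb over the 12 peaks, against 32.2 kb over all 2560, and ranged between 1.19 kb at Barx1 and 337 kb at Lmx1a. Of the 12, 2 lay within 10 kb of the start (16.7%, against 23.6% of all peaks). Another 6 lay 10 to 50 kb away, as did 940 of all 2560, and 4 lay farther out, as did 1015 of all 2560. The peak table that chose the genes also supplied these distances, so the shares are given as a description.

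The promoters of the members with the closest peaks are shown because they are the starts nearest to a peak, and no peak covered them. They are the 250 bases before the RefSeq start of Barx1 (chr13:48662786-48663035, plus strand) and of Six6 (chr12:72939632-72939881, plus strand), both in build GRCm38.p6. The peak coordinates below are in the earlier build mm9 (NCBIM37), for which no sequence was used, so the sequences under the peaks themselves are not shown. RefSeq gives Barx1 a span of 3472 bp and Six6 a span of 5018 bp, against 3227 and 4955 bp in the peak list, so the starts used by the 2 sources need not be the same base. Capitals mark CpG dinucleotides, the sites of DNA methylation.
Barx1: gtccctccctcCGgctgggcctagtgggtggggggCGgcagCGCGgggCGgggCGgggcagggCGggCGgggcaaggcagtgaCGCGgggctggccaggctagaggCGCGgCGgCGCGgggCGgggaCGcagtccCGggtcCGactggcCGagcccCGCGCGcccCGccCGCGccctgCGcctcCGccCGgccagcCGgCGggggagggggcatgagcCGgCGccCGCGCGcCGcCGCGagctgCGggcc
Six6: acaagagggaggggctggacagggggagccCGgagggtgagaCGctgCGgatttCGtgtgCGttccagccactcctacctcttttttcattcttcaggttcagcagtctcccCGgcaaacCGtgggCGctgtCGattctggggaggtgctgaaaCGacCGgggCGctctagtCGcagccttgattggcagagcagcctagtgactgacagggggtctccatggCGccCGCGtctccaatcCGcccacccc

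The Barx1 window holds 40 CpG sites and is 85.6% G or C, and 1.3% of the 32851 promoters in the RefSeq table have as many CpG sites. The Six6 window holds 17, a number reached by 23.5% of promoters. The table has 9 windows for 6 of the 8 genes, 4 of them alternative starts of Otx2. Promoters of Lhx5 and Barx2 were not used here. The 9 windows had between 6 and 40 CpG sites with a median of 9, against a median of 6 over all promoters. Overlapping Otx2 windows were counted separately, so this median is per window and not per gene. The letters TATAAA, searched on both strands, occurred in 2 of the 9, at Meis2 and at 1 of the Otx2 starts, and in 12.4% of all promoters. These are properties of the reference sequence and say nothing of macroH2A1 there.

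**Figure D1:**
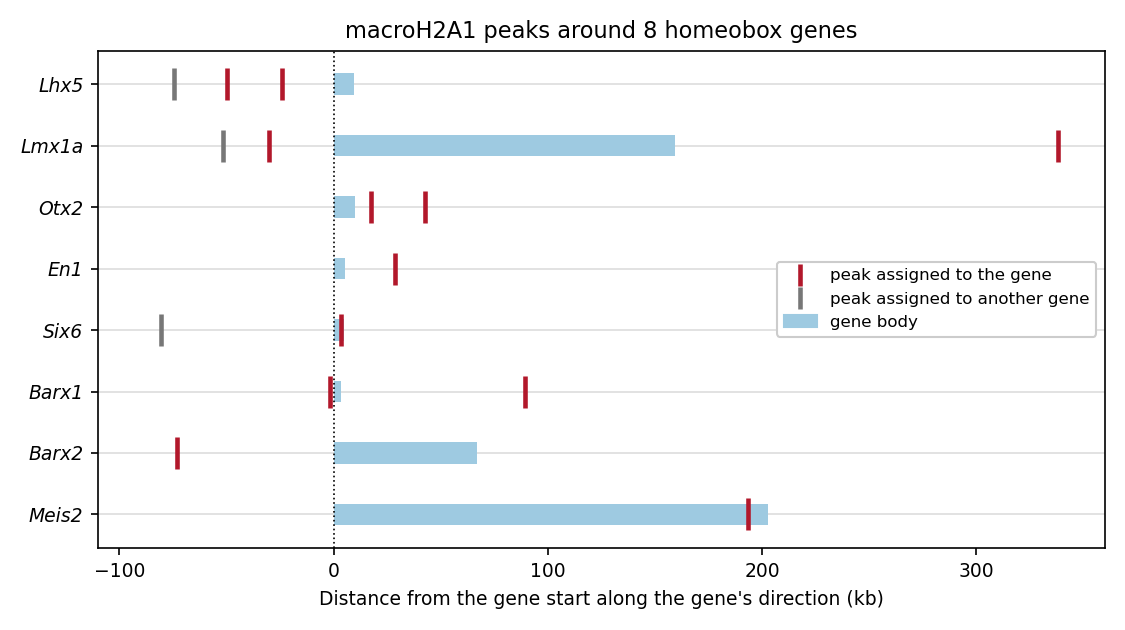
macroH2A1 peaks around the 8 genes, drawn in kb from each gene start along the direction of the gene. Red marks are peaks assigned to the gene, grey marks are peaks within 200 kb assigned to another gene and blue bars are gene bodies. Only the Six6 and Meis2 peaks lie inside the gene, and the Lhx5, Lmx1a and Six6 rows each have 1 grey mark upstream of the gene start.

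Otx2 encodes a factor that specifies the forebrain and midbrain, and later the retina. Its 2 peaks lay past the end of the gene on chromosome 14, which is on the minus strand. The closer, at 49268950 to 49270650, was 1701 bp wide and lay 16.5 kb from the start and 6.70 kb past the gene end. The farther, at 49243800 to 49245200, was 1401 bp wide and lay 42.0 kb from the start and 32.2 kb past the end. Their edges were 23.8 kb apart, and no other peak lay within 200 kb of them.

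En1, one of the mouse Engrailed genes, acts at the boundary of midbrain and hindbrain and in the ventral limb. It had 1 peak on chromosome 1 at 122526850 to 122528750, 1901 bp wide and 22.3 kb past the end of a gene 5.37 kb long. It stood alone: the nearest other peak in the list was 1257 kb away and assigned to Inhbb, which encodes a subunit of activin and inhibin.

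Lmx1a encodes a LIM-homeodomain factor of the roof plate and of midbrain dopaminergic neurons. One of its 2 peaks lay 29.3 kb upstream of the start on chromosome 1 at 169587950 to 169590100, with a width of 2151 bp. This peak was 18.2 kb past the end of Rxrg, the gene of a retinoid X receptor, and Rxrg had a peak of its own inside it, 1751 bp wide, with 19.2 kb between the 2 peak edges. The other Lmx1a peak was distant. It lay at 169956750 to 169958050, 1301 bp wide, 337 kb from the start of Lmx1a and 178 kb past its end. No other peak lay within 200 kb of it.

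Lhx5 encodes a LIM-homeodomain factor of the developing forebrain, hippocampus and spinal cord. Both of its peaks lay upstream on chromosome 5, at 120831050 to 120833100 and at 120856550 to 120858600. They were 48.7 and 23.2 kb from the start, and both were 2051 bp wide. A further peak, 1851 bp wide at 120806300 to 120808150, was assigned to ENSMUSG00000080412, a gene with no symbol in the list. The 3 peaks stood at near-equal steps: the start of one to the start of the next was 24.8 kb and then 25.5 kb. The third peak lay 73.6 kb upstream of Lhx5, with 22.9 kb between its edge and that of the nearest Lhx5 peak. Counting by nearest start thus gives Lhx5 2 of these 3 peaks. Rbm19, the neighbouring gene on that side, had 1 peak, 284 kb from the nearer Lhx5 peak, and that was the closest peak left out by the 200 kb limit.

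Six6 encodes a factor of the eye field, retina and hypothalamus. It was the only one of the 8 whose peak covered much of the gene. The peak lay on chromosome 12 at 74043400 to 74045150, began 2.47 kb from the start and ended 736 bp before the end. Its 1751 bp covered 35.3% of the gene, which is 4955 bp long in the list. On the other side of the Six6 start a peak of 1951 bp at 73959350 to 73961300 was assigned to Six6os1, listed as a separate gene on the opposite strand. It was 79.6 kb upstream of Six6 and 82.1 kb from the Six6 peak.

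Meis2 encodes a TALE-class homeodomain protein that works as a partner of Hox factors and is used in the eye, limb and brain. Its single peak, on chromosome 2 at 115696650 to 115699450, was the widest of the 12 at 2801 bp, and 1.2% of all listed peaks (32 of 2560) were as wide or wider. It lay inside the gene, which spans 203 kb on the minus strand, but near the far end: 192 kb from the start and 7.85 kb from the end. The nearest other peak was 1150 kb away.

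Barx1 and Barx2 encode related Bar-class factors, Barx1 in the stomach, teeth and jaw and Barx2 in muscle, cartilage and epithelia. The 2 Barx1 peaks flanked the gene on chromosome 13. The upstream one, at 48756150 to 48757300, was the closest of all 12 to a start, 1.19 kb away, and was the narrowest at 1151 bp. The downstream one, at 48847050 to 48848250, was 1201 bp wide and lay 85.3 kb past the end of a gene that is 3.23 kb long. Barx2 had 1 peak on chromosome 9 at 31793250 to 31794950, 1701 bp wide and 72.4 kb upstream of its start. The nearest other peak was 365 kb away and assigned to Tmem45b.

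The 12 peaks had a median width of 1726 bp, against 1551 bp over all peaks, and 8 of the 12 were wider than the list median (66.7%, against 48.6% of all peaks). The widths ran between 1151 and 2801 bp, against 1051 and 4551 bp over all peaks, so the Barx1 peaks lay near the narrowest width in the list. The Lhx5 peaks and the upstream Lmx1a peak were among the wide ones: 12.1% of all peaks were at least as wide as 2051 bp, and 7.5% as wide as 2151 bp. At the narrow end, 90.2% of all peaks were at least as wide as the upstream Barx1 peak. With 12 peaks from a single library, this difference in medians has no replicate check and was not tested.

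**Figure D2:**
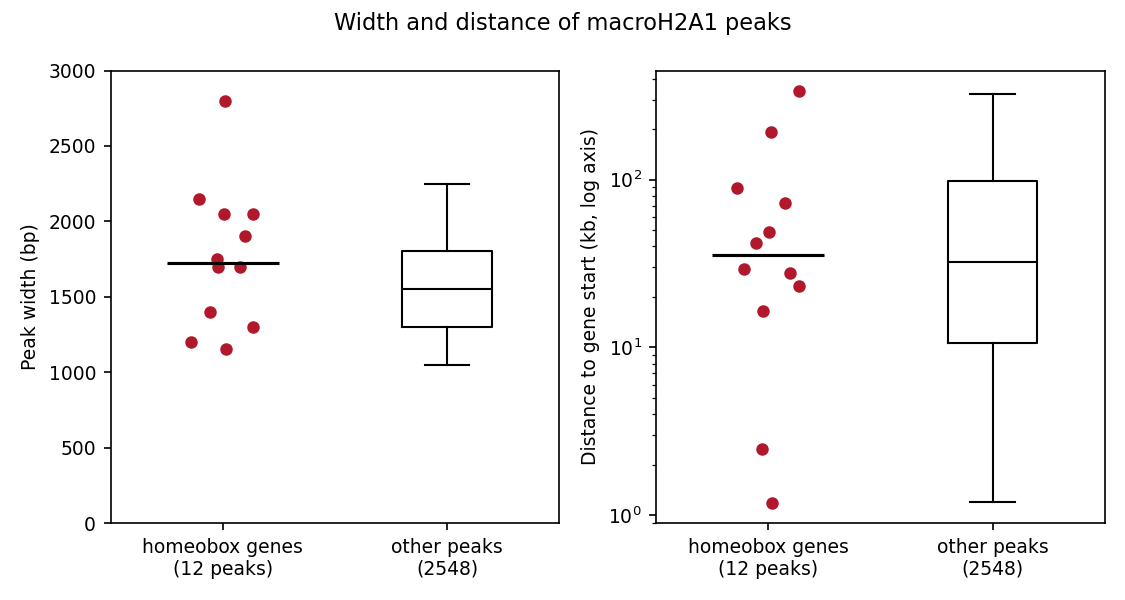
Width in bp (left) and distance to the gene start in kb on a log axis (right) of the peaks of the 8 genes, with points for single peaks and a line for their median, and of the other peaks, with a box for quartiles and median and whiskers for the 5th and 95th percentiles. The median width was 1726 bp for the 12 peaks and 1551 bp for the others, and the distances overlapped over most of their range.

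The 12 peaks lay on both sides of the gene starts. By the side of the start on which the midpoint lay, 5 were upstream and 7 downstream (41.7% upstream, against 52.0% of all peaks). In the authors' own classes, 5 were upstream (41.7%, against 51.4% of all peaks), 5 downstream (41.7%, against 32.6%) and 2 inside the gene (16.7%, against 14.2%). The 4 genes with 2 peaks differed in arrangement: both peaks were upstream at Lhx5, both downstream at Otx2, and they flanked the gene at Lmx1a and Barx1. Having 2 peaks was common in this selection, at 4 of 8 genes, against 14.2% of the 1409 assigned genes with a symbol, 200 of which had 2 or more. Which genes were picked rests on the same peak counts, so nothing is read from this.

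Of the 12 peaks, 8 had another peak within 200 kb (66.7%, against 47.3% of all listed peaks). For 6 of those 8, at Lhx5, Otx2 and Barx1, a second peak of the same gene lay that close. Both Lhx5 peaks also had a peak of another gene within 200 kb. The pairs of peaks at 1 gene rest on the same choice of genes, so nothing is read from this share. Not counting peaks of the same gene, 3 other peaks lay within 200 kb of the members' peaks, at Lhx5, Lmx1a and Six6, and 5 of the genes had none. The protein-coding genes on either side of the 8 numbered 16, of which 5 had an assigned peak, among them Rbm19, Rxrg, Tmem45b and 4930447C04Rik, the RefSeq name of the gene listed as Six6os1. Over all protein-coding genes the share with a peak was 6.14%, and genes beside the 8 were not chosen independently of the peaks around them.

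The relatives of the 8 genes were counted to see how far the peaks extend in each family. The lists were drawn up around the 8 genes with earlier results of these data known. Of 21631 protein-coding genes, 1328 had at least 1 peak that could be matched by symbol, which is 6.14%, and 34.8% of peaks belong to genes without a symbol and could not be counted. In the 6 families to which the genes belong, 11 of 45 genes had a peak (24.4%), but 8 of these 11 were the chosen ones. Without them, 3 of 37 did (8.1%), near the background, but taking out genes chosen for their peaks also lowers what is left. Among the 3 were Lhx3, a LIM-homeobox gene of the pituitary and motor neurons, with a peak 14.2 kb downstream of its start, and Tgif1, a repressor of TGF-beta signalling, with a peak 137 kb downstream.

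No other member of the families of Otx2 (0 of 2), En1 (0 of 1), Six6 (0 of 5) and the Barx genes (0 of 2) had a peak. Otx1, Crx, En2, Barhl1 and Barhl2, among others, thus had no entry. With 6.14% of all protein-coding genes having a peak, these families are too small for anything to be read from that. Among 73 further homeobox genes of brain and patterning, none of them in the 8, 9 had a peak (12.3%, against 6.14% of all protein-coding genes). This list too was drawn up with earlier results of these data known, and its share was not tested. The 9 genes were Rax, Pitx1, Pou4f2, Mnx1, Lbx2, Uncx, Dmbx1, Cux1 and Onecut3. Their 13 peaks had a median distance of 14.1 kb and a median width of 1451 bp, none covered a start (30 of 2560 in the whole list), and 4 lay within 10 kb of it (23.6% of all peaks did). Uncx, a gene of the axial skeleton, held 4 of the 13, between 16.2 and 61.7 kb from its start. Rax, which is required for eye formation, held 2, the closer 3.76 kb upstream. The Cux1 peak lay 4.15 kb upstream and the Lbx2 peak 4.44 kb downstream of the start. Mnx1, a motor neuron gene, had a peak 7.56 kb downstream, Pou4f2, a gene of retinal ganglion cells, 13.1 kb downstream, and Pitx1, a gene of the hindlimb and pituitary, 15.8 kb downstream. The Onecut3 peak lay inside the gene, 10.3 kb from its start, and the Dmbx1 peak 24.2 kb upstream.

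**Figure D3:**
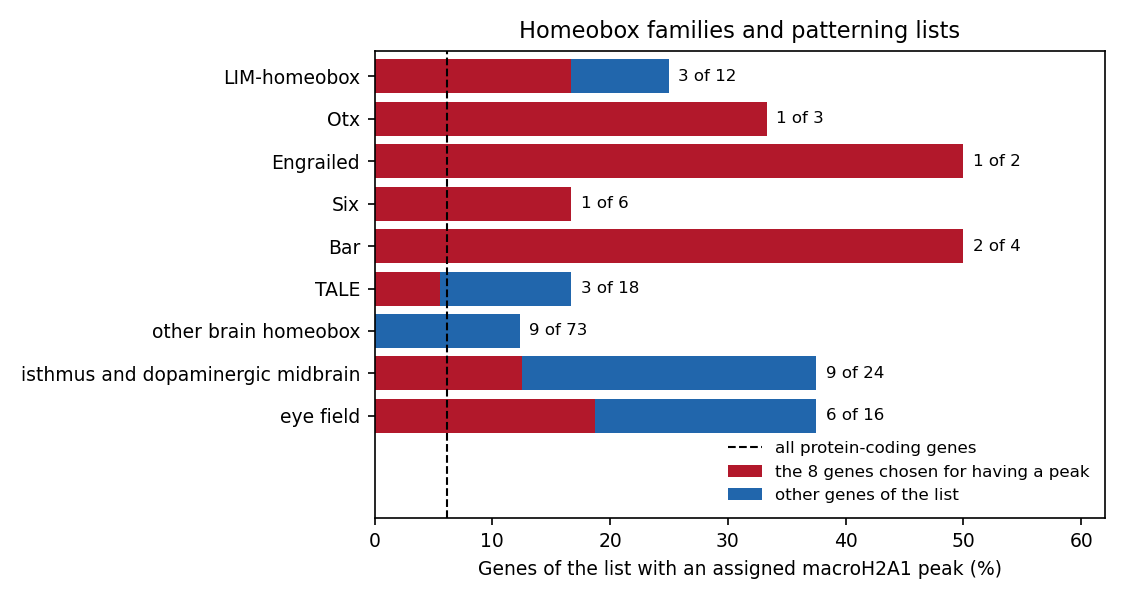
Share of the genes in each list with an assigned macroH2A1 peak, in percent, split into the 8 chosen genes (red) and the other genes of the list (blue), with the dashed line at 6.14% for all protein-coding genes. Red bars are high by choice, and the blue part of the 6 families is 3 genes, Lhx3 and Tgif1 among them.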

How the data were processed

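The deposited file is a peak list for the macroH2A1 library of E14 cells. Its values are coordinates, widths and distances in bp. The authors mapped reads with Bowtie to NCBIM37 (mm9), per the submitters' processing notes, and the peak names carry the prefix CCAT, which is a peak caller, as deposited. Not given in the sources used here are the caller's version, threshold and control. The header is shifted by 1 column against the rows, and columns were read by position. The list holds no read count or score, so depth and precision per peak are unknown.

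Distances are gaps between a gene start and the closest peak edge, 0 where the peak covers the start. Their calculation was checked on a few made-up peaks with known answers, on both strands. Genes were matched by symbol, or by a synonym of a single gene, on the same chromosome to RefSeq genes of GRCm38.p6 on chromosomes 1 to 19 and X, used for names and gene order. Python 3.11.15 and pandas 2.3.3 were used. No test was run. The members and gene lists were chosen with earlier results of these data known. Named genes are the 8 members, genes with a peak within 200 kb of theirs, and genes of the lists with a peak. Some family members without a peak were also named, as examples. Genes on either side, and those with the nearest peak beyond 200 kb, were named after their values were seen. Some results on neighbouring and related genes are not reported here.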

Additional observations from a re-analysis of the deposited data

How the results depend on the processing

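Of 33 alternatives to 7 results, 31 left the value within 1.5 times, or within the 95% Wilson interval for a share. The other 2 moved it. The interval served only as a yardstick, since the genes were chosen for their peaks. Some alternatives could hardly move a value. With distinct regions, or with entries naming the gene alone, the count stayed at 12 peaks. The number left unmoved is therefore no measure of robustness. Within 50 kb of the start instead of 10 kb, the share of the 12 peaks was 66.7% instead of 16.7%, because the limit is wider (60.4% of all peaks lay that close). Without the 8 chosen genes, the share of family genes with a peak was 8.1% instead of 24.4%, because those genes were chosen for their peaks. The median distance lay between 28.5 and 42.0 kb over 11 alternatives, which left out each gene in turn, used the midpoint or the deposited distance, or kept wide peaks. The median width lay between 1701 and 1826 bp over 9. With peaks wider than the list median, 8 of the 12 peaks were left, which is at the edge of the 1.5 times limit. With 1 library per antibody and no read depth, no alternative can show how the peaks would vary between cultures. No paired analysis was possible because there are no replicates and no test.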

Other observations

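Genes that act with the 8 in the same territories were counted as well, from lists drawn up with earlier results known. Of 24 genes of the isthmus and the dopaminergic midbrain, 9 had a peak, 3 of them Otx2, En1 and Lmx1a. The other 6 of 21 (28.6%, against 6.14% of all protein-coding genes) were Pax2, Shh, Th, Neurog2, Spry1 and Sp8. The list contains genes known to have peaks when it was written, and this share was not tested. Th, which encodes the enzyme that makes L-DOPA, had a peak 8.32 kb upstream of its start. The Pax2 peak was 2851 bp wide and 76.5 kb upstream, and Sp8 had 2 upstream peaks, at 11.5 and 73.5 kb. The Shh peak overlapped the end of the gene, 9.09 kb from its start.

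Of 16 eye-field genes, 6 had a peak, 3 of them Otx2, Six6 and Meis2. The other 3 of 13 (23.1%) were Rax, Tbx3 and Nr2e1, and Rax was also counted among the 73 homeobox genes above. The Nr2e1 peak lay inside the gene, 13.8 kb from its start. The share over all protein-coding genes was 6.14%. These lists are short, contain genes known to have peaks when they were written, and were not tested.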
